A study of Mus musculus with 6 samples.

Results

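The 10 genes described here handle heme and iron: Hmox1, Hmox2 and Blvrb break heme down, Trf, Tfrc and Slc11a2 carry and take up iron, Fth1 and Ftl1 store it, and Slc40a1 and Cp serve its export. They were chosen by gene symbol, with earlier results of these data known, and all 10 were present among the 12968 genes of the deposited table. The series compared RNA on tagged ribosomes from the middle section of the left brain hemisphere in 3 mice whose middle cerebral artery was occluded for 1 h (MCAO) and that were killed at 3 days, with 3 control mice killed at 3 days without occlusion. The RiboTag allele adds an epitope to Rpl22, a ribosomal protein, wherever Cre recombinase is active, and tagged ribosomes are then precipitated with the RNA they carry. The series title names astrocytes. The labels used here name no Cre driver, strain, age or sex, and describe no sham operation in the controls. Each library is 1 animal, with RNA pooled from repeated precipitations, and the replicate numbers only name animals.

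Iron serves oxygen transport, respiration and many enzymes, but free ferrous iron also drives the formation of hydroxyl radicals, so cells keep it bound. Heme oxygenase opens the heme ring and releases iron, carbon monoxide and biliverdin, which biliverdin reductases turn into bilirubin. Transferrin carries ferric iron to the transferrin receptor, the divalent metal transporter moves iron out of the endosome, ferritin shells of heavy and light chains store it, and ferroportin, the known iron exporter of mammalian cells, works with a ferroxidase. In the brain, transferrin messenger RNA is known chiefly from oligodendrocytes and choroid plexus, ferritin from microglia and oligodendrocytes, and ceruloplasmin from astrocytes, whose form is anchored to the membrane. Ferritin and transferrin receptor are also controlled after transcription, by iron regulatory proteins that bind their messenger RNAs, so a messenger level is not a protein level.

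Values are scaled read counts, meaning reads per gene divided by 1 factor per library. The libraries held 882263 to 4567615 recovered reads after MCAO and 1538901 to 9519548 in controls, and MCAO 2 was the shallowest library of all. Fold changes are limma log2 changes of the value + 1, MCAO over control, with a standard error (SE), and genes are called where the p adjusted over the 12549 genes tested is under 0.05. Of all tested genes 3.08% were called, 2.30% higher and 0.789% lower after MCAO, and the median log2 change was -0.01. Rpl22, whose protein carries the tag, stood at 251 ± 52.1 scaled reads after MCAO and 197 ± 32.8 in controls (SD, n = 3 each) and was not called (adjusted p = 0.330). The labels do not say whether the animals of a group shared a litter or a day, so p-values reach no further than these animals. Limma also draws the variance of each gene toward a trend over all tested genes. The p-values therefore rest in part on the spread of other genes.

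Transferrin, heme oxygenase 1 and both ferritin chains rose after MCAO, while the receptors, transporters and the ferroxidase of the same pathway were not called. Of the 10 genes, all of which were tested, 4 were called higher and 0 lower, beside 2.30% higher and 0.789% lower among all tested genes; 5 were at an unadjusted p under 0.05, beside 19.3% of all. Their median log2 change was 0.53, and 8 had a positive change. In 5 of the 10 the values of the MCAO and control libraries did not overlap, as in 24.9% of tested genes. The 10 genes were chosen with earlier results of these data known, so these counts beside all genes are descriptions only. In precipitates from whole tissue, a change in the number of cells of a type and a change in ribosome-bound RNA per cell cannot be told apart.

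**Figure D1:**
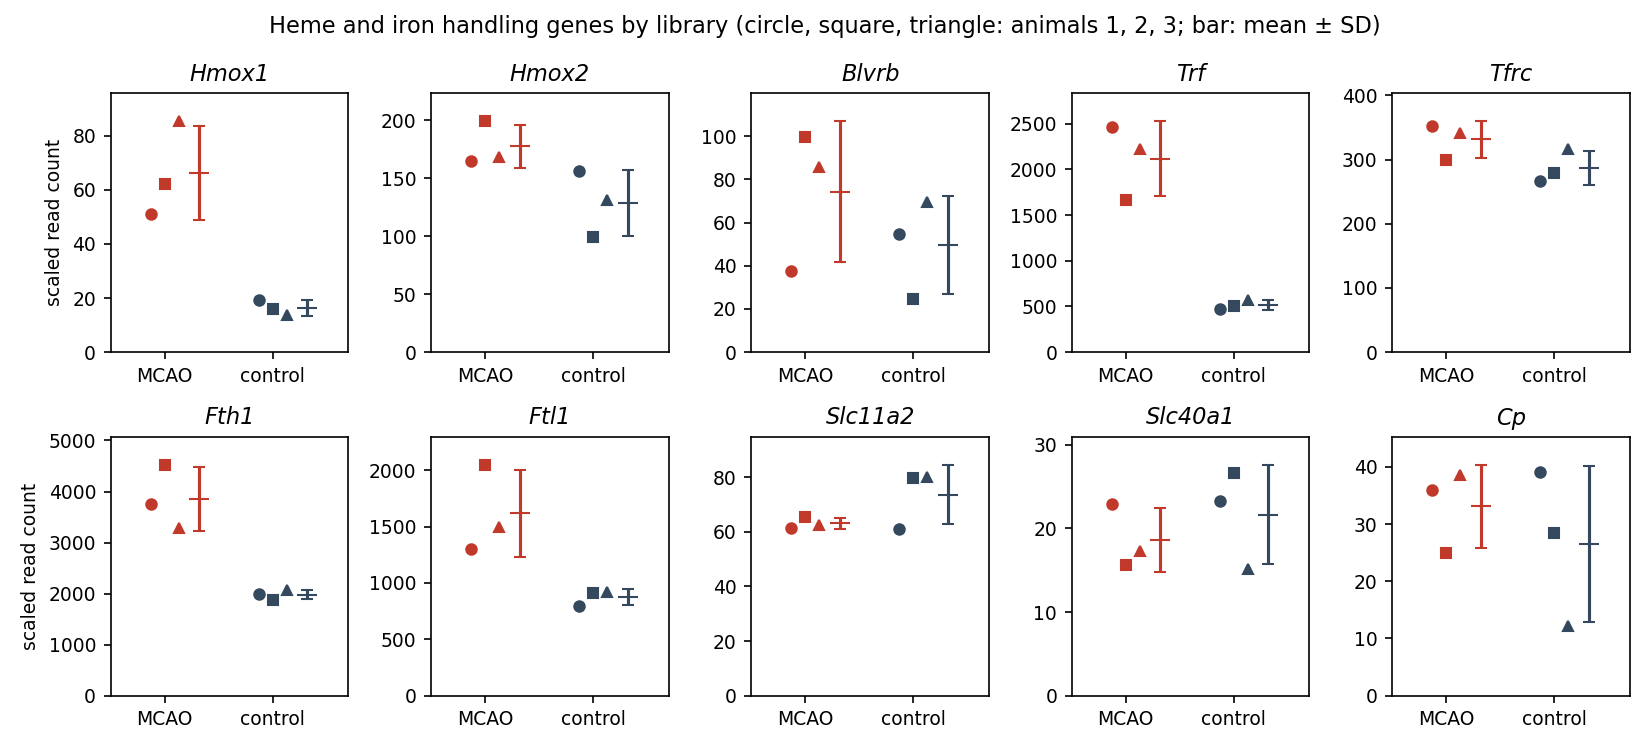
Scaled read counts (vertical axis, from 0) of the 10 genes in the 3 MCAO and 3 control libraries, with the mean and SD of each group beside the points; circles, squares and triangles are animals 1, 2 and 3. Hmox1, Trf, Fth1, Ftl1 and Hmox2 have every MCAO point above every control point, while the groups overlap in the other 5 genes.

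Hmox1, on chromosome 8 (75093618 to 75100593 in GRCm38.p6), encodes heme oxygenase 1, the stress-inducible form of the enzyme. It had 51.2, 62.2 and 85.3 scaled reads in MCAO 1, 2 and 3, against 19.3, 16.0 and 13.6 in controls 1, 2 and 3. Every MCAO library lay far above every control, and MCAO 3 was highest. The means were 66.2 ± 17.4 after MCAO and 16.3 ± 2.86 in controls (SD, n = 3 each), which gave a ratio of means of 4.07, and the log2 change was 1.94 (SE 0.31, adjusted p = 0.00304). The values rest on 20 reads in MCAO 2, the lowest number after MCAO, and on 9 reads each in controls 2 and 3. Hmox1 was called under all 16 alternatives that tested it, with adjusted p of 2.71e-05 to 0.0482, the highest of them without MCAO 3. The remaining alternative kept only genes with a mean of at least 50, which Hmox1 does not reach.

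Hmox2, on chromosome 16 (4726361 to 4766742), encodes the constitutive heme oxygenase, which is the main form in the resting brain. It had 165, 199 and 168 scaled reads in MCAO 1, 2 and 3, against 156, 99.3 and 131 in controls. The groups did not overlap, though MCAO 1 and control 1 lay close together. The log2 change was 0.48 (SE 0.19, unadjusted 95% interval 0.07 to 0.89), which did not pass the test (adjusted p = 0.194). Within each library the log2 ratio of Hmox1 to Hmox2 reads, not corrected for length, was -1.67, -1.66 and -0.97 in MCAO 1, 2 and 3, against -2.95, -2.56 and -3.18 in controls. That ratio lay higher in every MCAO library, by 1.46 on average, and its difference was not tested.

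Blvrb, on chromosome 7 (27447978 to 27465981), encodes biliverdin reductase B, which also acts as a flavin reductase. It had 37.7, 99.5 and 85.9 scaled reads in MCAO 1, 2 and 3, against 54.7, 24.8 and 69.4 in controls. MCAO 1 lay below 2 of the controls, so the groups overlapped widely. The log2 change of 0.58 (SE 0.39, 95% interval -0.26 to 1.42) was not called (adjusted p = 0.452), and it was -0.11 when the shallowest library of each group was left out. Blvra, the reductase that makes most bilirubin in adults, averaged 63.9 ± 4.47 after MCAO and 44.5 ± 15.9 in controls and was not called either (adjusted p = 0.277); it was chosen after its values were seen.

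Trf, on chromosome 9 (103208876 to 103230286), encodes transferrin, the ferric iron carrier of plasma and brain fluid, and had the lowest p of the 10 genes. It had 2464, 1667 and 2222 scaled reads in MCAO 1, 2 and 3, against 467, 507 and 576 in controls 1, 2 and 3. The lowest MCAO library was well over the highest control. The means were 2118 ± 409 after MCAO and 517 ± 55.3 in controls (SD, n = 3 each), which gave a ratio of means of 4.10, and the log2 change was 2.02 (SE 0.17, adjusted p = 1.01e-05). By p it stood at rank 10 of the 12549 genes tested. At least 286 reads stood behind each value, and all 17 alternatives called it, with adjusted p of 2.19e-30 to 0.00695.

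Tfrc, on chromosome 16 (32608896 to 32632794), encodes the transferrin receptor, which brings iron-loaded transferrin into the cell. It had 353, 299 and 342 scaled reads in MCAO 1, 2 and 3, against 266, 279 and 317 in controls. MCAO 2 lay below control 3, so the groups overlapped. The log2 change was 0.21 (SE 0.15, 95% interval -0.11 to 0.52), and it was not called (adjusted p = 0.477). The upper bound of that interval lies below the lower bound for Trf, 1.66. Slc11a2, on chromosome 15 (100387898 to 100424209), encodes the divalent metal transporter that passes ferrous iron out of endosomes. It had 61.2, 65.3 and 62.6 scaled reads after MCAO, against 61.0, 79.8 and 80.0 in controls. Control 1 lay below all 3 MCAO libraries, and the log2 change of -0.21 (SE 0.22, 95% interval -0.67 to 0.25) was not called (adjusted p = 0.632).

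**Figure D2:**
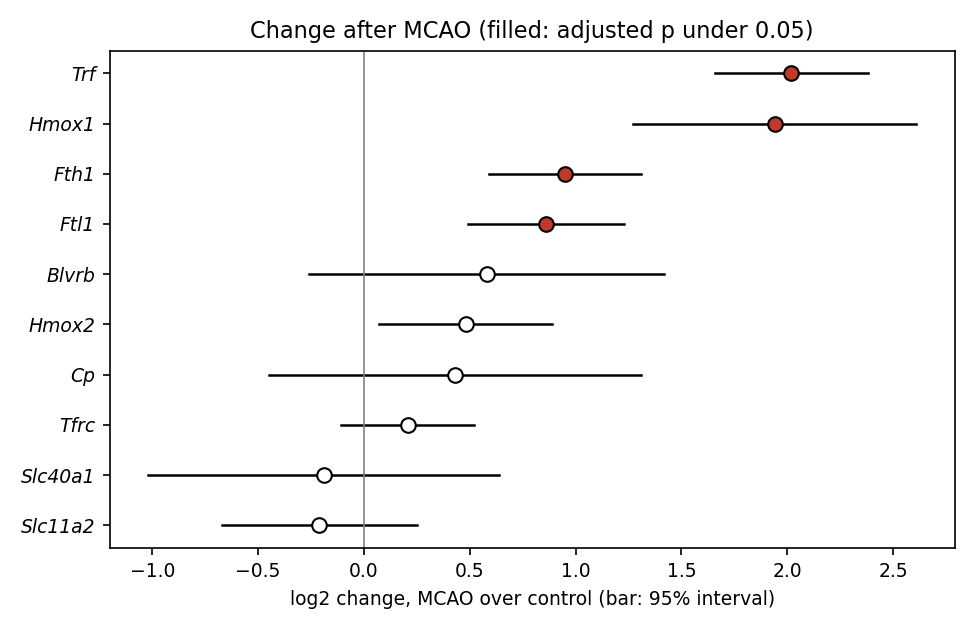
Log2 change of the 10 genes, MCAO over control (horizontal axis), with unadjusted 95% intervals; filled points have an adjusted p under 0.05. Trf at 2.02, Hmox1 at 1.94, Fth1 at 0.95 and Ftl1 at 0.86 are filled, and the other 6 are open.

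Fth1, on chromosome 19 (9980600 to 9985111), encodes the ferritin heavy chain, which oxidises ferrous iron as it enters the shell. It had 3753, 4525 and 3278 scaled reads in MCAO 1, 2 and 3, against 1994, 1879 and 2072 in controls. All MCAO libraries were higher, and the controls lay close together. The means were 3852 ± 629 after MCAO and 1982 ± 97.3 in controls (SD, n = 3 each), and the log2 change was 0.95 (SE 0.17, adjusted p = 0.00667). Ftl1, on chromosome 7 (45457944 to 45459886), encodes the light chain, which favours mineral growth inside the shell. It had 1306, 2049.7 and 1495 scaled reads in MCAO 1, 2 and 3, against 795, 908 and 921 in controls.

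Ftl1, too, was higher in every MCAO library, and MCAO 2 was highest for both chains. Its log2 change was 0.86 (SE 0.17, adjusted p = 0.0151). The log2 ratio of Ftl1 to Fth1 reads within a library was -1.52, -1.14 and -1.13 after MCAO, against -1.33, -1.05 and -1.17 in controls. The ratio overlapped between the groups and differed by -0.08 on average, less than its SD of 0.22 after MCAO and 0.14 in controls. The log2 ratio of Tfrc to Fth1 reads was -3.41, -3.92 and -3.26 after MCAO, against -2.90, -2.75 and -2.71 in controls, lower in every MCAO library by 0.74 on average, a difference that was not tested. With no intensity trend in the model neither chain was called (adjusted p = 0.0668 for Fth1 and 0.140 for Ftl1), nor was Ftl1 without control 1 (0.0760). Over all 17 alternatives adjusted p ranged from 3.10e-08 to 0.0668 for Fth1 and from 4.89e-05 to 0.140 for Ftl1. RefSeq lists 2 Fth and 3 Ftl pseudogenes by name, and the sources used here do not say how reads shared with such copies were counted, so both levels are uncertain to that extent.

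Stretches before annotated starts of the ferritin genes are shown because both chains rose. Each is the 100 bases before a RefSeq start on GRCm38.p6, 5′ to 3′ on the gene's strand, with capitals marking ATTGG, the reverse complement of the CCAAT box. Ftl1 is read from chr7:45459887-45459986 on the minus strand, and Fth1 from chr19:9982546-9982645 on the plus strand, before the second of its 2 starts, which lies within the gene span given above.
Ftl1: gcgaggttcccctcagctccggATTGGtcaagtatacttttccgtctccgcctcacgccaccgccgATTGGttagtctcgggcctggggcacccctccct
Fth1: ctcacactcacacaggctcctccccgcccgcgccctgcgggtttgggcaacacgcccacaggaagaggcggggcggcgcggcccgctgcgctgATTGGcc
Counted back from the start, the motif begins at base -78 and again at -34 in Ftl1, and at -7 in Fth1. CCAAT on either strand is in 18.9% of the 32851 RefSeq windows of this length, so the match is a description only, and it was searched for after the sequences were seen. The window before the first Fth1 start, at 9980600, has no CCAAT on either strand. The RefSeq promoter table used here held 12 starts for 6 of the 10 genes, Fth1, Ftl1, Hmox2, Blvrb, Tfrc and Cp, and 2 of the 12 had CCAAT, the windows shown. TATAA, searched on either strand of the same windows, was in 1 of the 12, before a start of Cp (10.2% of all windows). The starts of Hmox1, Trf, Slc40a1 and Slc11a2 were not analysed here. From 250 bases before to 50 after the start, 0 of the 12 held TGACNNNGC, the core of the antioxidant response element (12.4% of all windows), TGAGTCA (5.20%) or CACGTG (7.15%), each searched on both strands. The loop of the iron-responsive element, a C, any 5 bases and then CAGTGN on the gene's strand, was in 0 of 12 of the first 50 bases after the start (1.55% of all). These letters are not in these windows, and nothing is drawn from that about the factors that bind them. Messenger sequence past the first 50 bases was not searched, so the 0 for the iron-responsive element says nothing about it.

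Slc40a1, on chromosome 1 (45908070 to 45926532), encodes ferroportin. It had 22.9, 15.6 and 17.3 scaled reads in MCAO 1, 2 and 3, against 23.3, 26.6 and 15.1 in controls. The groups overlapped, with control 3 the lowest of all, and MCAO 2 held 5 reads. The log2 change of -0.19 (SE 0.39) had a 95% interval of -1.02 to 0.64 and was not called (adjusted p = 0.834), and it was 0.08 with the shallowest library of each group left out. The log2 ratio of Slc40a1 to Slc11a2 reads averaged -1.73 ± 0.32 after MCAO and -1.74 ± 0.52 in controls (SD, n = 3 each).

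Cp, on chromosome 3 (19956933 to 20009750), encodes ceruloplasmin, the copper ferroxidase that loads iron onto transferrin. It had 35.9, 24.9 and 38.6 scaled reads in MCAO 1, 2 and 3, against 39.1, 28.4 and 12.1 in controls. Only control 3, with 8 reads, stood below the MCAO libraries, and MCAO 2 also held 8 reads. The log2 change of 0.43 (SE 0.41, 95% interval -0.45 to 1.31) was not called (adjusted p = 0.596) and was -0.03 without control 3. At this depth the intervals of both Slc40a1 and Cp span either direction.

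Beside the 10 genes, 51 of 64 listed genes of heme and iron biology were tested, and the other 13 were not analysed here. Of the 51, 1 was called higher and 0 lower, which is near the 2.30% and 0.789% of all tested genes. Their median log2 change was 0.11, and 3 were at an unadjusted p under 0.05, beside 19.3% of all tested genes. The called gene was Lcn2, which encodes lipocalin 2, a protein that binds iron-carrying siderophores. It had 108, 65.3 and 111 scaled reads in MCAO 1, 2 and 3, against the listed floor of 1 in every control. Lcn2 thus reached the mean of 10 needed for testing only through its MCAO values. Its mean of 94.7 was at least 26.5-fold higher, taking 3 reads per library as the floor averaged over the controls. Slc22a17, which encodes a receptor for lipocalin 2, averaged 913 ± 54.1 scaled reads after MCAO and 820 ± 128 in controls and was not called (adjusted p = 0.584).

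**Figure D3:**
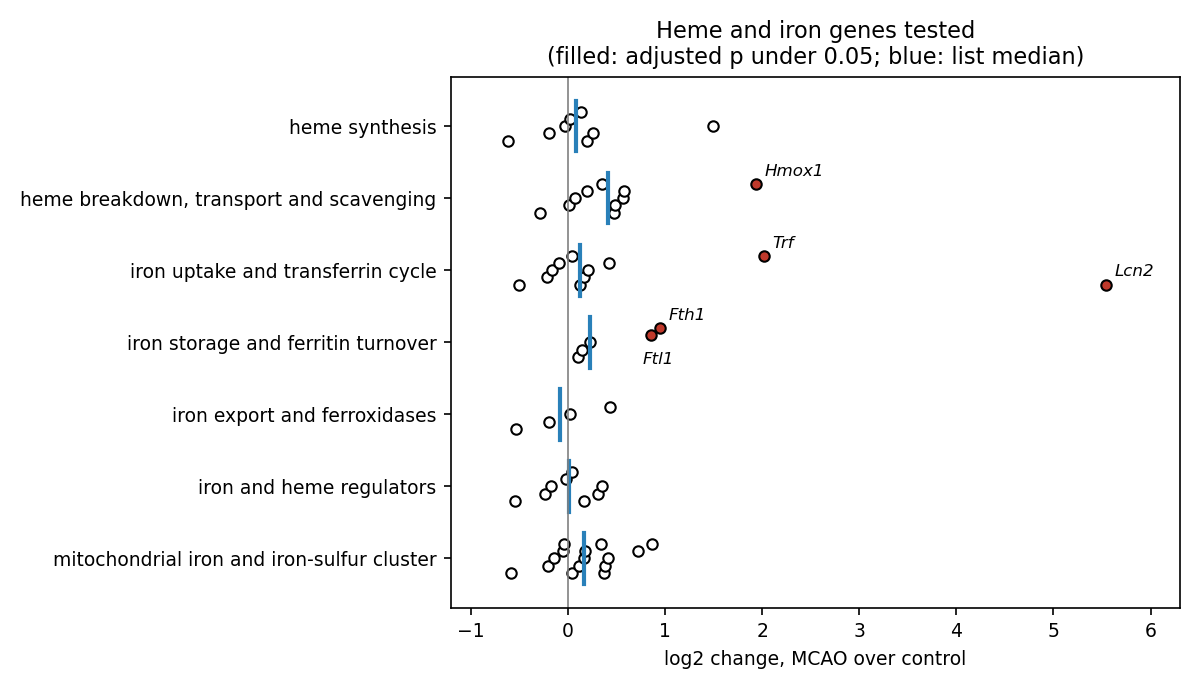
Log2 change, MCAO over control (horizontal axis), of every tested gene in 7 lists of heme and iron genes, with called genes filled and named and the list median as a blue bar. Lcn2 is drawn at its fitted value, which depends on the floor in the controls; 5 genes are filled, 4 of them among the 10 described above.

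Heme synthesis had 0 called among 8 tested genes, with a median log2 change of 0.08. Urod, a decarboxylase of the porphyrin ring, stood at 194 ± 34.6 scaled reads after MCAO and 191 ± 26.9 in controls, and Fech, which inserts the iron, at 179 ± 25.2 after MCAO and 204 ± 25.4 in controls. In the list of heme breakdown, transport and scavenging, Hmox1 was the 1 called gene of 10 tested, with a median of 0.41. Lrp1, a receptor that clears hemopexin-bound heme among many ligands, had 11565 ± 2292 after MCAO and 14242 ± 3805 in controls, and Pgrmc1, a heme-binding membrane protein, had 632 ± 116 after MCAO and 596 ± 10.7 in controls. Neither was called (adjusted p = 0.567 and 0.849).

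Among 11 tested genes of iron uptake and the transferrin cycle, Trf and Lcn2 were called, with a median of 0.13. The storage list had both ferritin chains called among 5 tested, with a median of 0.23. Its other members were the iron chaperones Pcbp1, at 369 ± 12.7 scaled reads after MCAO and 343 ± 12.5 in controls, and Pcbp2, at 575 ± 4.27 after MCAO and 492 ± 32.3 in controls, and the ferritin turnover receptor Ncoa4, and none of the 3 was called, though Ncoa4 was when the shallowest library of each group was left out. The export list had 0 called of 4, with a median of -0.08. Heph, the ferroxidase hephaestin, averaged 66.0 ± 13.2 after MCAO and 97.3 ± 27.8 in controls (adjusted p = 0.272), and the amyloid precursor gene App 5297 ± 1320 after MCAO and 5128 ± 742 in controls (0.969).

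The regulators had 0 called of 8, with a median of 0.01. Ireb2, which encodes iron regulatory protein 2, was lower in all 3 MCAO libraries, at 193 ± 7.47 after MCAO and 227 ± 23.1 in controls, and was not called (adjusted p = 0.442). Keap1, the inhibitor of the oxidative stress factor NRF2, averaged 278 ± 18.5 after MCAO and 282 ± 9.79 in controls. The mitochondrial iron and iron-sulfur cluster list had 0 called of 15, with a median of 0.17. The chaperone gene Hspa9 averaged 972 ± 151 after MCAO and 907 ± 177 in controls, and the assembly gene Isca1 389 ± 47.0 after MCAO and 403 ± 47.7 in controls. In the synthesis, export, regulator and mitochondrial lists limma, edgeR and DESeq2 each called 0 genes, and 1, 0, 0 and 1 genes were at an unadjusted p under 0.05 in limma.

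Markers of several cell types differed between the same libraries. Of 18 microglia and macrophage markers, all in the table and 17 tested, 12 were called higher and 0 lower, with a median log2 change of 2.24. Their summed level was 2616 to 3584 scaled reads after MCAO and 724 to 978 in controls, and Spi1 stood at the floor in control 2. The phagocyte lysosome gene Cd68 rose by 3.86 on the log2 scale (SE 0.47), and the myeloid adaptor gene Tyrobp rose by 3.70 (SE 0.52). Both tested blood myeloid markers of 12 listed rose, Lyz2 by 2.42 (SE 0.28) and Csf3r by 2.51 (SE 0.57), with a summed level of 111 to 121 after MCAO and 14.4 to 24.1 in controls; the other 10 were not analysed here. Csf3r was not called with MCAO 1, 2 or 3 or control 1 or 3 left out (adjusted p 0.0548 to 0.121). Genes were tested where the mean over all libraries was 10 or more. Csf3r, Cd68, Tyrobp and Spi1 averaged 2.86, 4.95, 6.46 and 4.55 scaled reads in controls. They reached that mean only through their MCAO values, so for these genes a higher mean after MCAO was fixed by the filter.

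Oligodendrocyte markers had 7 of 13 called higher and 0 lower, a median of 0.76 and a summed level of 12744 to 16149 after MCAO and 8535 to 9703 in controls, with none at the floor. The called genes numbered 2 without MCAO 1 or without control 1, 3 without MCAO 3, 4 without control 2 and 0 with no intensity trend. The connexin gene Gjb1 rose by 1.14 on the log2 scale (SE 0.29), and Fa2h, whose product hydroxylates myelin lipids, rose by 1.01 (SE 0.22). Gjb1 was not called with any 1 of the 6 libraries left out (adjusted p 0.0520 to 0.164), nor Fa2h without MCAO 1, MCAO 2, control 1 or control 2 (0.0509 to 0.0916). Gjb1 also lost its call with a pseudocount of 0.1 (0.0507), quantile normalisation (0.0618) or no intensity trend (0.0968). The same held for Gjb1 with the shallowest library of each group left out (0.126). Fa2h also lost its call with no intensity trend (0.0799). Of 5 tested genes of the erythrocyte list, 1 was called, with a median of 0.75 and a summed level of 751 to 924 after MCAO and 516 to 628 in controls. That gene, the alpha globin Hba-a1, had 120.0, 152 and 75.3 scaled reads in MCAO 1, 2 and 3, against 51.2, 33.7 and 19.6 in controls (log2 change 1.75, SE 0.34, adjusted p = 0.0116). It was not called without MCAO 2 (0.0573) or with no intensity trend (0.113). The sources used here do not say how reads shared with its near-identical neighbour Hba-a2 were counted. Hba-a2 averaged 212 ± 43.2 after MCAO and 133 ± 44.0 in controls (adjusted p = 0.114). Bpgm, which makes the diphosphoglycerate of red cells, averaged 363 ± 38.2 after MCAO and 288 ± 2.07 in controls (0.233).

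**Figure D4:**
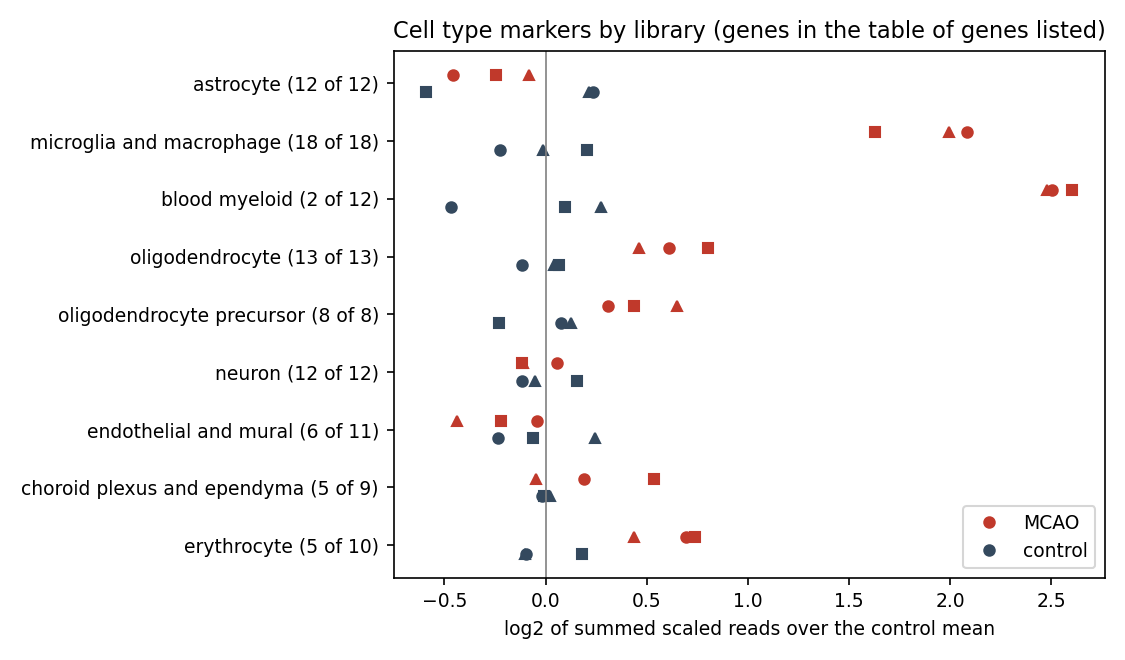
Summed scaled reads of 9 cell type marker lists in each library, as log2 over the control mean of the list (horizontal axis); symbols are animals 1, 2 and 3, and numbers in brackets are genes in the table of genes listed. Every MCAO library lies above every control in the microglia, blood myeloid, oligodendrocyte, oligodendrocyte precursor and erythrocyte lists.

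Astrocyte markers, at 40138 to 52147 summed scaled reads after MCAO and 36591 to 64785 in controls, had 1 of 12 called, Gfap, which was higher, a median of -0.19, and control 2 had the lowest sum of all libraries. Without control 2, 5 were called, Gfap higher and the other 4 lower. With the shallowest library of each group left out 6 were called lower, with library weights 4 and with DESeq2 2, beside Gfap higher each time; the remaining alternatives called 0 lower. Neuron markers, at 18671 to 21089.6 after MCAO and 18702 to 22527 in controls, had 0 of 12 called, and markers of cells other than the one in the series title were thus also present in the precipitates. Markers of oligodendrocyte precursors had 1 of 8 called, Cspg4 (0 without MCAO 3 or without any 1 of the controls), those of endothelial and mural cells 0 of 6 tested and those of choroid plexus and ependyma 0 of 5 tested. In the neuron, endothelial and choroid plexus lists edgeR and DESeq2 called 0 too, and 0, 1 and 2 genes were at an unadjusted p under 0.05 in limma. The choroid plexus gene Ttr averaged 707 ± 158 after MCAO and 511 ± 35.5 in controls (adjusted p = 0.166), and Clic6, a chloride channel gene of that epithelium, 146 ± 44.6 after MCAO and 172 ± 39.6 in controls (0.574).

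The 4 risen genes were then set against these markers within each library. The log2 ratio of Trf to summed oligodendrocyte markers was -2.52, -3.28 and -2.52 in MCAO 1, 2 and 3, against -4.19, -4.25 and -4.05 in controls. It lay higher in every MCAO library, by 1.39 on average. The log2 ratio of Hmox1 to summed microglia markers was -6.10, -5.37 and -5.29 after MCAO, against -5.16, -5.85 and -5.85 in controls, overlapping and with a mean difference of 0.03. The same ratio was lower in every MCAO library for Fth1, by 0.96 on average, and for Ftl1, by 1.05. These ratios were chosen after the values were seen and carry no test, and the part of each cell type in the changes of the 4 genes was not tested. The ferritin chains were not set against oligodendrocyte markers, whose summed level was also higher after MCAO.

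**Figure D5:**
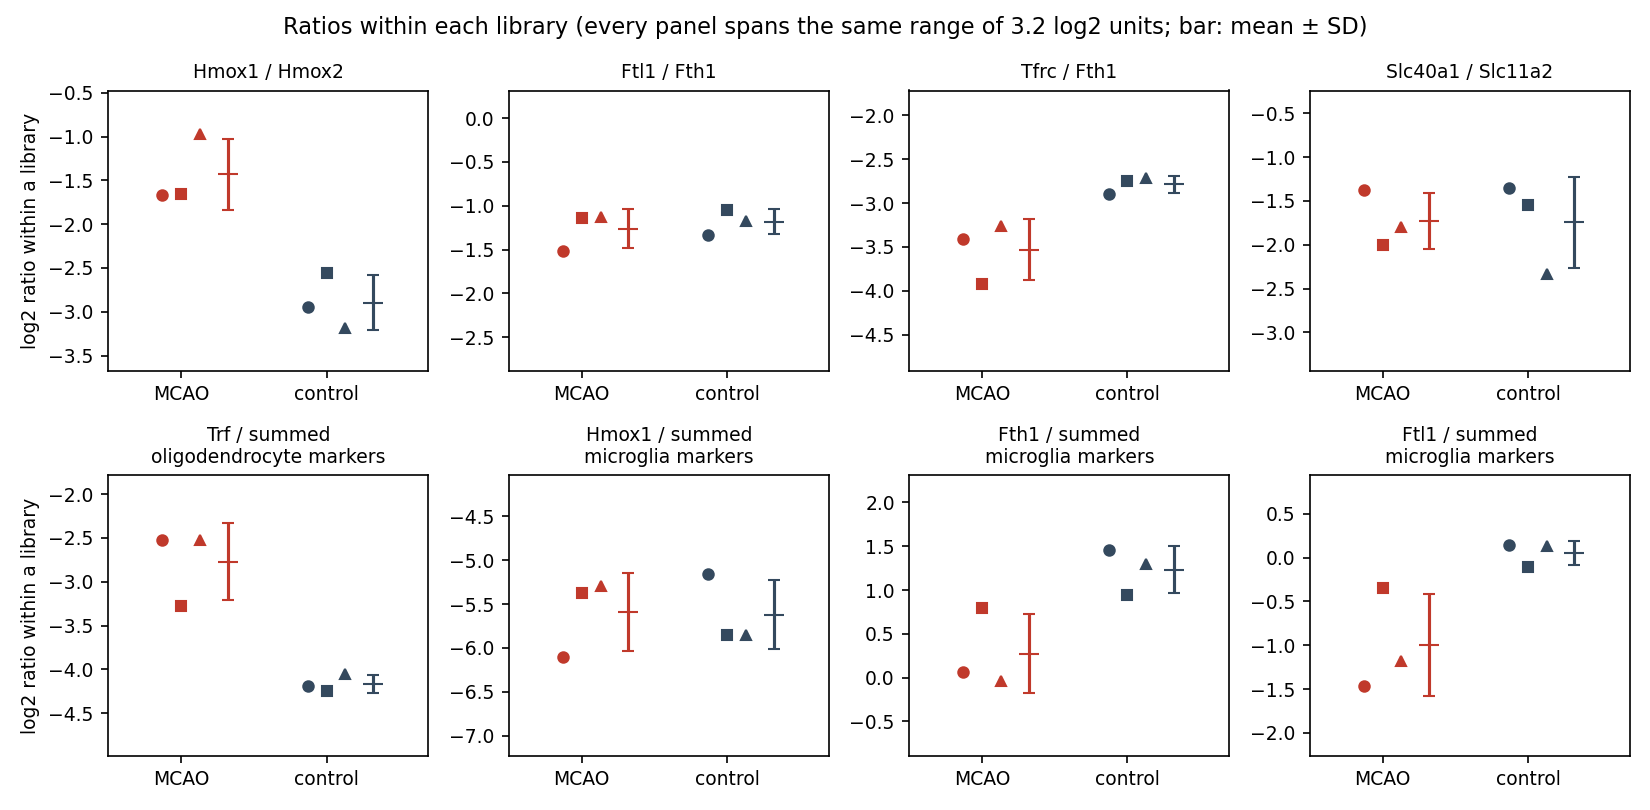
Log2 ratios within each library (vertical axis) for 4 pairs of heme and iron genes and for 4 genes over summed cell type markers, with group mean and SD; all panels span the same range. The groups lie apart for Hmox1 to Hmox2, Tfrc to Fth1, Trf to oligodendrocyte markers and both ferritin chains to microglia markers, and overlap for the other 3.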

How the data were processed

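The authors deposited 1 table of normalised signal for 6 libraries of ribosome-bound polyA RNA, with each animal's technical replicates joined in 1 column. The submitters' processing notes name the build mm10 and, without saying what each did, CASAVA 1.8, HISAT2, Partek 6.6, R 3.3.1 and DESeq2. Apart from a floor of 1, the values of a column are whole multiples of a single step. Dividing by it recovered whole reads within a tolerance of 0.1 read (99.95% of values in control 1, 100% elsewhere). No gene has a largest value under 10.6. Limma 3.58.1 in R 4.3.3 (intensity trend, two-sided) was fitted to log2(value + 1) of 12549 genes whose mean was 10 or more, with Benjamini-Hochberg adjustment, and tested on simulated data. EdgeR 4.0.16 and DESeq2 1.42.0 on recovered reads, other pseudocounts, filters and scalings, and left-out libraries were alternatives. Floors cover counting error only. The members and lists were chosen with earlier results of these data known. Named genes are the 10 members, Rpl22, Lcn2, Gfap and, per list, the 2 most changed called or else most abundant genes (43 in all). Blvra, Ncoa4, Spi1, Trem2, Aif1, Fcer1g, Hba-a2, Ppox and Iscu were named after their values were seen. The astrocyte, neuron, endothelial and precursor lists are given as counts. Gene positions are RefSeq's on GRCm38.p6, the assembly of mm10.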

Additional observations from a re-analysis of the deposited data

How the results depend on the processing

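Across 17 alternatives Trf was called in all and Hmox1 in the 16 that tested it. With no intensity trend Fth1 (0.95, adjusted p = 0.0668) and Ftl1 (0.86, adjusted p = 0.140) lost their calls, 157 genes were called in all, and 14 marker genes against 24 as reported. Library weights called 1002 genes and 39 marker genes. With only genes of mean 50 or more kept, 3 heme and iron genes were called against 5 as reported, because Hmox1 and Lcn2 were then not tested. With 1 library left out the genes called numbered 148 to 306 against 387 (234 without MCAO 2, 148 without MCAO 3, 227 without control 1 and 245 without control 3), and the log2 change of Ftl1 was 0.68 to 1.00. Leave-one-out ranges that crossed 0, none of them called, were -0.03 to 0.78 for Cp, -0.12 to 0.14 for Urod, -0.08 to 0.16 for Pgrmc1, -0.12 to 0.25 for App, -0.06 to 0.03 for Keap1, -0.02 to 0.26 for Hspa9 and -0.13 to 0.04 for Isca1. With the shallowest library of each group left out the sign turned for Blvrb (-0.11), Slc40a1 (0.08) and Lrp1 (0.09), as it did for App with quantile normalisation (-0.10) and for Keap1 with library weights (0.01). The cause of these shifts was not tested. Rescaling moved the median log2 change of all genes by at most 0.02. No paired analysis was possible because the labels give no replicate numbers, and those used here pair no animals. Slc40a1, Cp and Hmox1 rest on few reads, down to 5, 8 and 9 in 1 library, which limits their precision.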

Other observations

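Among the 51 other heme and iron genes tested, 3 were at an unadjusted p under 0.05: Lcn2, described above, and Ppox and Iscu, which were chosen after their values were seen. Ppox, which encodes protoporphyrinogen oxidase of heme synthesis, had 19.4, 18.7 and 20.6 scaled reads in MCAO 1, 2 and 3, against 7.77, 5.32 and 6.04 in controls. The groups did not overlap, but the log2 change of 1.49 (SE 0.48) did not pass the test (adjusted p = 0.110). That change rested on 6 reads in MCAO 2 and on 3 and 4 in controls 2 and 3. With no intensity trend Ppox was called (adjusted p = 0.0139). Ppox averaged 6.38 scaled reads in controls and 19.6 after MCAO. It reached the mean needed for testing only through its MCAO values, so a higher mean after MCAO was fixed by the filter. Iscu, the scaffold protein of iron-sulfur cluster assembly, had 177, 193 and 191 scaled reads after MCAO, against 164, 115 and 145 in controls, a log2 change of 0.41 (SE 0.17, adjusted p = 0.215). Both are single genes of lists in which 0 genes were called.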
